A study of Drosophila melanogaster with 2 samples.

Results

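Neuropeptide precursor genes, with the genes that process their products, were followed in heads of adult male Drosophila melanogaster with and without paraquat. The list held 35 genes by name, of which 31 encode precursors or hormone subunits and 4 (amon, svr, Phm and dimm) act in peptide processing or in the identity of peptide-secreting cells. A probe set, the group of short oligonucleotides that reads 1 transcript, was taken where the platform annotation gave it 1 of these symbols and no other. This found 28 of the 35 genes, among 10844 genes named alone by a probe set, on 29 of 13966 non-control probe sets, with svr read by 2 probe sets and every other gene by 1. The symbols Tk, AstA, Dsk, Hug, SIFa, Gpa2 and Gpb5 were carried by none of the annotated probe sets, and those genes have no value here.

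The study asked how oxidative stress changes gene expression in the head and measured poly(A) RNA on Affymetrix DrosGenome1 arrays. Both groups were males of the inbred laboratory stock w1118, written w118 in the source labels, which carries a mutated white gene, and both were reared in the dark at 25 °C and 70% humidity with roughly 200 animals to a bottle. The unexposed group was 1 array of heads at adult day 3. The paraquat group was 1 array of heads at adult day 3, from flies given 15 mM paraquat in sucrose for 30 h from adult day 2. The herbicide paraquat undergoes redox cycling in cells and yields superoxide. The labels place the unexposed flies in food bottles and the paraquat flies on sucrose, so the effects of diet and of paraquat cannot be told apart. Heads were pooled and sieved from frozen flies, each group has no replicate, and no test across replicates was possible for any value below.

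Neuropeptides are cut from longer precursor proteins in the secretory pathway of neurons and endocrine cells. A prohormone convertase (amon in flies) cuts at pairs of basic residues, a carboxypeptidase (svr) trims the exposed ends, and a monooxygenase (Phm) begins the amidation that many peptides need for activity. The finished peptides are stored in dense-core vesicles, act mostly through G protein-coupled receptors and in the fly head control feeding, water balance, sleep, the daily rhythm and responses to stress. Many precursors are made by a handful of neurons, so a whole-head RNA sample can hold little of them.

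Of the 20 member probe sets measured on both arrays, 13 (65.0%) lay within 1.5-fold, close to the share of all measured probe sets (63.5%). Among these 20 the largest differences were in Nplp3 and Nplp2, precursors of neuropeptide-like peptides, which were lower with paraquat. For dim members the error of the arrays was wide, so similar levels were not shown for them. Intensities are given after scaling both arrays to a common median, and a probe set counted as measured when it reached a floor of 477, set at the 40th percentile of the averaged arrays. At or above the floor were 22 of the 29 member probe sets (75.9%) on the unexposed array, against 59.7% of all non-control probe sets. The count was also 22 of 29 on the paraquat array, against 59.9% of all. Both arrays measured 20 member probe sets (69.0%, against 53.2% of all), 4 reached the floor on 1 array alone (13.2% of all probe sets did) and 5 on neither. The plot of intensities shows each pair.

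**Figure D1:**
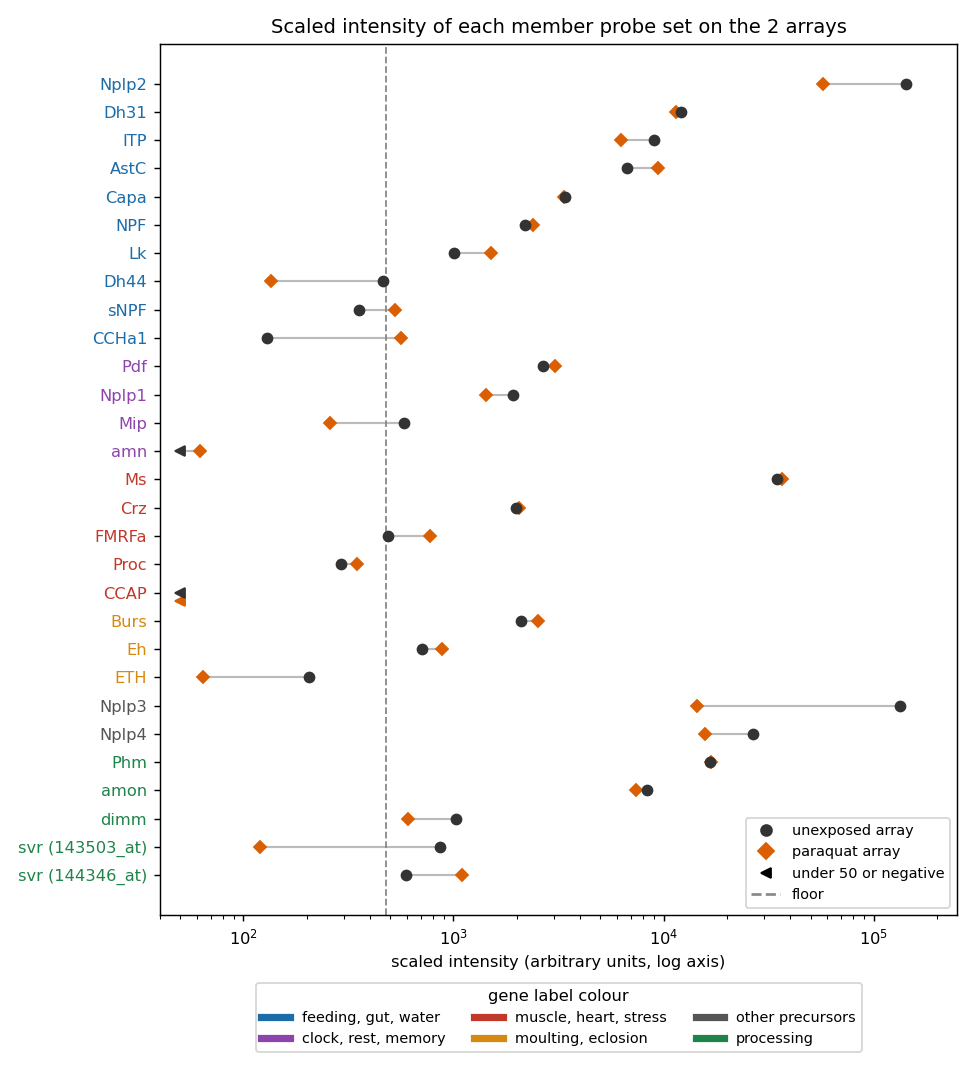
Scaled intensity (arbitrary units, log axis) of the 29 member probe sets, grouped by role in the colour of the gene label. Circles are the unexposed array and diamonds the paraquat array, the dashed line is the floor of 477, and triangles at the left edge mark values under 50 or negative. Nplp3 and Nplp2 have the widest gaps among the probe sets above the floor on both arrays, while Ms, Phm, Dh31, Capa and Crz nearly coincide. Probe sets differ in how strongly they bind, so levels are not comparable between genes.

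Among the 20 probe sets measured on both arrays, none was at least 2-fold higher with paraquat, against 8.15% of the 7425 measured probe sets. At least 2-fold lower were 2 of the 20, against 8.22% of all. The median log2 ratio of paraquat over unexposed was 0.03 for the members and 0.03 for all measured probe sets, and the median absolute log2 ratio was 0.37 against 0.41. Within 1.5-fold lay 13 of the 20 (65.0%), against 63.5% of all. By these measures, which pool dim and bright probe sets, the list lay close to the rest of the array. The bright members are compared apart below. With paraquat 9 of the 20 were lower (45.0%, against 47.9% of all) and 11 higher.

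Array error is given as 1 SE built from control probe sets. It is meant to cover hybridisation and scanning and leaves out the spread between flies and between RNA preparations. Its part for dim signals is the spread over different controls with no matching transcript in fly RNA. That part therefore also holds differences between probe sets. A difference is called beyond array error where its 95% interval leaves out 0, and within array error where the interval takes in 0. The interval left out 0 for 5 of the 20 members, against 29.9% of all measured probe sets. These were Nplp3, Nplp2, Nplp4, ITP and AstC, the first 4 lower and the last higher with paraquat. The plot of ratios shows the intervals, which widen near the floor.

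**Figure D2:**
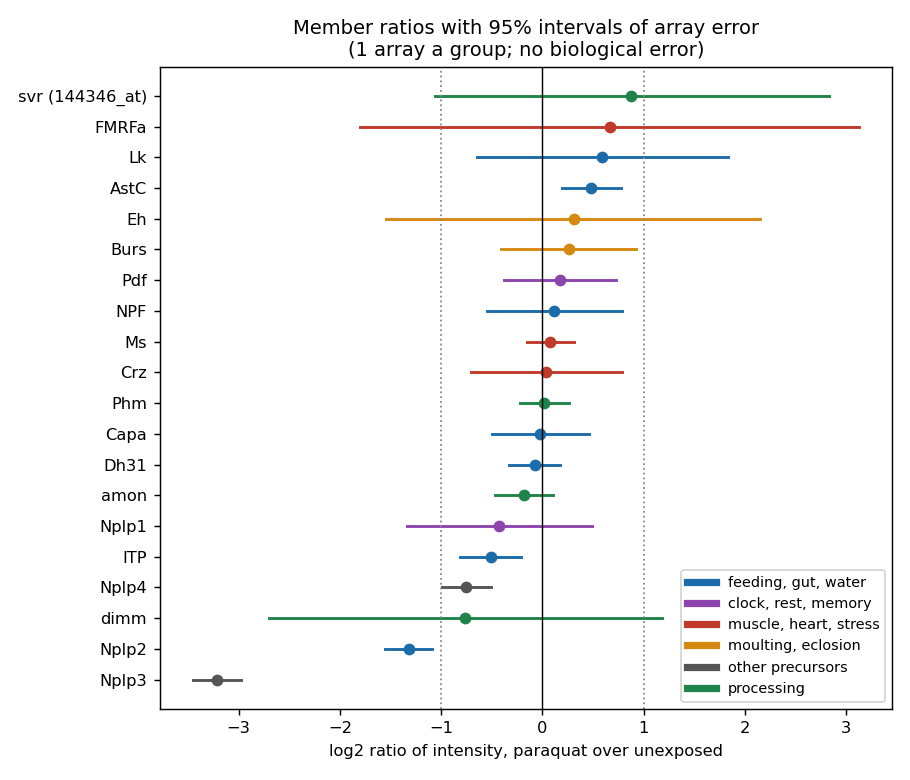
Log2 ratio of intensity (paraquat over unexposed) for the 20 member probe sets measured on both arrays, ordered by ratio and coloured by role. Lines are 95% intervals of array error, which hold no biological error, and dotted lines mark 2-fold. Nplp3 (-3.21) and Nplp2 (-1.32) lie below the 2-fold line with narrow intervals, and 15 of the 20 intervals cross 0.

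Nplp3 encodes a small precursor whose products carry the names SHA-peptide and VVIamide. Its scaled intensity was 133462 in unexposed heads and 14391 with paraquat, a 9.27-fold lower value (log2 -3.21 ± 0.12, array error). That ratio ranked 27 from the lowest among 7425 measured probe sets. Nplp2, also known as the immune-induced molecule IM7 of the haemolymph, had an intensity of 142827 unexposed and 57284 with paraquat, 2.49-fold lower (log2 -1.32 ± 0.12) and at rank 353 from the lowest. The unexposed values of both were among the highest on that array. There, 9 non-control probe sets were brighter than Nplp2 and 23 brighter than Nplp3, and the highest deposited intensity was 167877. Whether saturation narrowed their ratios was not tested.

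Nplp4, the precursor of the YSY peptide, went from 26545 unexposed to 15816 with paraquat, 1.68-fold lower (log2 -0.75 ± 0.12). Nplp1, whose products include the amidated peptides IPNamide and MTYamide, had an intensity of 1922 unexposed and 1431 with paraquat. Its log2 ratio was -0.43 ± 0.46, so that its interval (-1.34 to 0.49) took in 0. All 4 Nplp genes had the lower intensity on the paraquat array, as did 47.9% of all measured probe sets. The interval left out 0 for 3 of them, against 29.9% of all measured probe sets in either direction. The Nplp genes were named from peptides found by mass spectrometry of fly nervous tissue.

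In a whole-head sample, fewer cells of a type and less RNA per cell cannot be told apart. All 6 lists of tissue markers had medians below 0 in the same comparison as Nplp2, Nplp3 and Nplp4, from -0.10 (photoreceptors) and -0.28 (neurons) to -3.44 (head fat body), although the gut amylase gene Amy-d was higher (log2 1.42). Of 8 head fat body markers 7 had a probe set, 6 reached the floor unexposed and 4 with paraquat, and their summed scaled intensity was 412803 unexposed and 30546 with paraquat. Lsp2, sxe2, Obp99b and Tsf1 were the 4 measured on both arrays, with log2 ratios between -7.72 and -2.70, while fit and tobi were under the floor with paraquat, and Fbp1 was under it on both. The part of these tissues in the Nplp results was not tested.

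**Figure D3:**
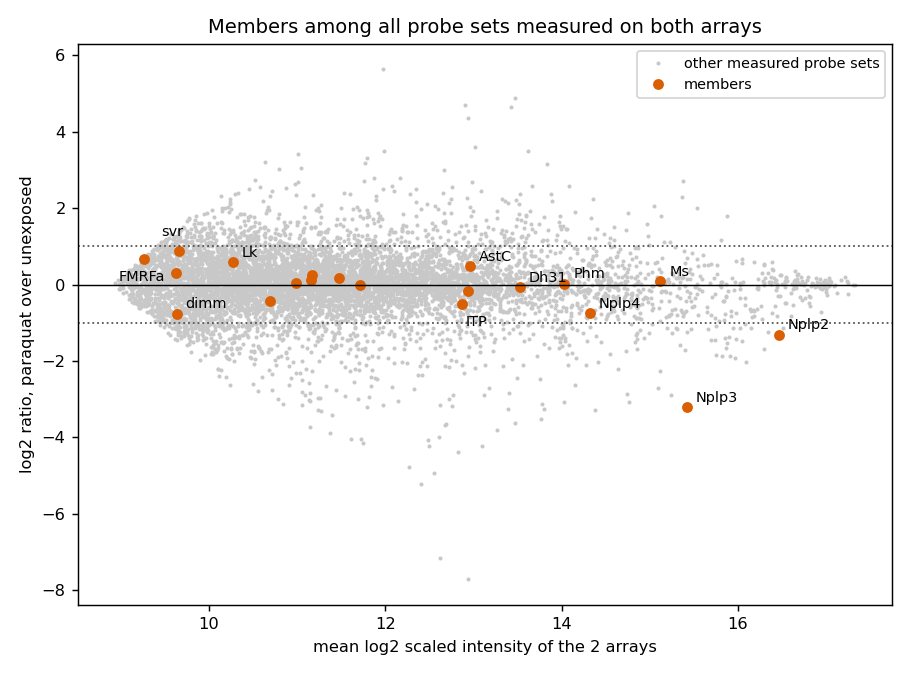
Log2 ratio (paraquat over unexposed) against the mean log2 scaled intensity of both arrays for the 7425 probe sets measured on both, with the 20 members in orange. Dotted lines mark 2-fold. Nplp3 and Nplp2 lie at the bright end and below the cloud's centre, and the other members lie between the 2-fold lines.

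Without Nplp2, Nplp3 and Nplp4, a split made after their values were seen, the remaining 17 members had log2 ratios from -0.76 to 0.88 with a median of 0.08. Of these 17, 11 were above 0 and 6 below, while 47.9% of all measured probe sets were below 0. The genes taken out were all below 0, which by itself raises the share above 0.

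Of 14 precursor genes listed under feeding, the gut and water balance, 10 had a probe set and 7 were measured on both arrays. Nplp2 was placed in this group by the list alone, and besides Nplp2 none passed 2-fold. AstC encodes allatostatin C, a somatostatin-like peptide of brain and gut endocrine cells. Its intensity was 6720 unexposed and 9398 with paraquat, 1.40-fold higher (log2 0.48 ± 0.15, interval 0.19 to 0.78). ITP encodes ion transport peptide, an antidiuretic hormone that promotes thirst. It went the other way, from 8968 unexposed to 6295 with paraquat, 1.42-fold lower (log2 -0.51 ± 0.15, interval -0.81 to -0.21). Both differences exceeded array error and neither has a biological replicate behind it.

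Dh31, a calcitonin-related diuretic hormone also made by clock neurons, had an intensity of 12071 unexposed and 11477 with paraquat (log2 -0.07 ± 0.13, interval -0.33 to 0.18). NPF, the fly relative of neuropeptide Y, which drives feeding and reward, had 2196 and 2385 (log2 0.12 ± 0.34). Capa, the precursor of diuretic peptides that act on the Malpighian tubule, had 3389 and 3340 (log2 -0.02 ± 0.25, interval -0.50 to 0.46). These 3 differences were within array error. The array error interval, which leaves out the spread between flies, was narrower for Dh31 than for NPF (-0.55 to 0.79).

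Lk encodes leucokinin, which stimulates fluid secretion and limits meal size. Its intensity was 1002 unexposed and 1512 with paraquat (log2 0.59 ± 0.63), a difference within array error. The other genes of the group that had a probe set were dim. Dh44, a corticotropin-releasing factor-like diuretic hormone, had 460 unexposed and 135 with paraquat, both under the floor, so no ratio is given. sNPF, a feeding peptide, had 356 unexposed and 527 with paraquat, where the highest absent control (an array control with no matching transcript in fly RNA) was at 533. CCHa1, a peptide of brain and gut, had 129 unexposed and 563 with paraquat, at least 1.18-fold higher. Such bounds, here and below, leave out array error, which is wide near the floor.

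Among precursors of clock, rest and memory circuits, Pdf is the output signal of the lateral clock neurons. Its intensity was 2679 unexposed and 3030 with paraquat (log2 0.18 ± 0.28, interval -0.38 to 0.73). Mip, an allatostatin B or myoinhibiting peptide that promotes sleep, had 579 unexposed and 259 with paraquat, at least 1.09-fold lower against the highest absent control. The memory gene amn had -145 and 62, under the floor on both arrays. Neither measured gene of this group, Pdf or Nplp1, differed beyond array error.

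The 3 measured precursors of muscle, heart and stress peptides had differences within array error, with Ms beyond it under quantile normalization. Ms, or myosuppressin, which inhibits the heart and visceral muscle, had an intensity of 34610 unexposed and 36609 with paraquat (log2 0.08 ± 0.12, interval -0.15 to 0.31, and log2 0.26 under quantile normalization). Crz, or corazonin, a gonadotropin-releasing hormone-related peptide tied to stress responses, had 1991 and 2053 (log2 0.04 ± 0.38, interval -0.70 to 0.79). FMRFa, a precursor of several peptides that modulate muscle, had 487 and 775 (log2 0.67 ± 1.26), close to the floor and with an interval from -1.80 to 3.13. Proc, the precursor of the muscle peptide proctolin (291 and 346), and CCAP, a cardioactive and ecdysis peptide (-450 and -132), were under the floor on both arrays.

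The hormones of moulting and eclosion were mostly dim in adult heads. Burs, the alpha subunit of the cuticle-hardening hormone bursicon, had 2098 unexposed and 2515 with paraquat (log2 0.26 ± 0.34). Eh, eclosion hormone, had 710 and 878 (log2 0.31 ± 0.94). ETH, ecdysis-triggering hormone, which is made by the Inka cells of the trachea and not by the brain, had 206 and 64, under the floor on both arrays. The differences in Burs and Eh were within array error.

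The processing genes differed little where the signal was strong. Phm had an intensity of 16631 unexposed and 16860 with paraquat (log2 0.02 ± 0.12, interval -0.22 to 0.26). The convertase amon had 8360 and 7382 (log2 -0.18 ± 0.15, interval -0.47 to 0.11). dimm, the basic helix-loop-helix factor that sets the secretory capacity of peptidergic cells, had 1033 unexposed and 610 with paraquat, 1.69-fold lower with a wide error (log2 -0.76 ± 0.99). The probe sets of svr went opposite ways: 144346_at had 597 and 1099 (log2 0.88 ± 0.99), and 143503_at had 861 and 120, at least 1.61-fold lower. No direction can be given for svr.

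Strong signal narrows array error from an SE of 1.54 at the floor to 0.19 at 10 times the floor. At or above 10 times the floor on both arrays, an intensity of 4773, were 9 of the 29 member probe sets. They were Nplp2, Nplp3, Nplp4, Dh31, AstC, ITP, Ms, amon and Phm. Over the array, 1817 of 13966 non-control probe sets were that bright. Of these, 6 were within 1.5-fold, against 70.6% of 1817 probe sets that bright. At least 2-fold lower were 2 of the 9, Nplp2 and Nplp3, against 7.10% of the same probe sets. None of the 9 was at least 2-fold higher, against 5.94%. The median log2 ratio of these bright members was -0.18, against -0.01 for all probe sets that bright. Their median absolute log2 ratio was 0.48 against 0.31, so the bright members differed more than bright probe sets in general. For the other 11 measured members the array error ran from 0.25 (Capa) to 1.26 (FMRFa).

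Of 17 peptide hormone genes outside the list, 11 had a probe set and 8 were measured on both arrays, of which 2 were at least 2-fold lower and none as much higher, for a median log2 ratio of -0.36. CCHa2, a nutrient-dependent hormone of fat body and gut, went from 24978 to 1326 (log2 -4.24), and the insulin-like peptide gene Ilp2, expressed in brain neurosecretory cells, from 8825 to 4017 (log2 -1.14). The log2 ratios of spab (0.84) and Ilp8 (-0.42) had 95% intervals that took in 0. Ilp7 was at least 2.92-fold higher, from a negative value of -2120 to 1393.

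Further processing, dense-core vesicle and peptidase genes were measured for 10 of 16 named, with 1 at least 2-fold lower, none as much higher and a median of -0.24. That gene was Nep2, of the neprilysin family of peptidases that degrade peptides outside cells, with an intensity of 2296 unexposed and 603 with paraquat (log2 -1.93). Nep4, another neprilysin, was higher (7244 and 10201, log2 0.49), and the synaptotagmin Sytbeta (-0.81) and the vesicle protein gene IA-2 (-0.51) had 95% intervals that took in 0. Pal2, whose enzyme completes the amidation that Phm begins, had 5653 and 4845 (log2 -0.22). 7B2, the partner that amon needs for maturation, had log2 -0.05 on its bright probe set (24451 and 23700) and 0.85 on a dim one.

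Of 27 receptor probe sets, 17 (63.0%, against 59.7% of all) reached the floor unexposed and 11 (40.7%, against 59.9%) with paraquat. Of 32 receptor genes named, 19 had a probe set and 10 were measured on both arrays, with a median of -0.18, 2 at least 2-fold lower and none as much higher. Another 6 reached the floor on the unexposed array alone and 1 on the paraquat array alone. Besides rk and SPR, given below, those on the unexposed array alone were near the floor. CCKLR-17D3 had 499 unexposed and 407 with paraquat and no bound. sNPF-R, Dh44-R2 and CCAP-R were at least 1.07-fold, 1.33-fold and 1.56-fold lower. TkR86C, on the paraquat array alone, had 333 and 507 and no bound. Set beside its ligand, the leucokinin receptor gene Lkr had an intensity of 1815 unexposed and 634 with paraquat (log2 -1.52), with an array error interval that takes in 0. The PDF receptor gene Pdfr, the other receptor counted as at least 2-fold lower, had 1005 unexposed and 479 with paraquat, which is not above the highest absent control. Its unexposed value was 1.88 times the highest absent control of the paraquat array. The array error interval of its ratio ran from -3.43 to 1.29 and took in 0. The bursicon receptor gene rk had 1722 unexposed and -206 with paraquat, at least 3.23-fold lower.

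SPR, which responds to Mip and to sex peptide, was at least 2.05-fold lower on a probe set at 1094 unexposed and 281 with paraquat, while its other probe set was under the floor on both arrays. The proctolin receptor gene Proc-R had 847 unexposed and 523 with paraquat, the latter not above the highest absent control. Its log2 ratio was -0.70, with an array error interval from -2.98 to 1.59 that took in 0. CCHa2-R had log2 0.41. The tachykinin receptor gene TkR99D, whose ligand gene Tk has no value here, had 2927 and 3237 (log2 0.15).

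**Figure D4:**
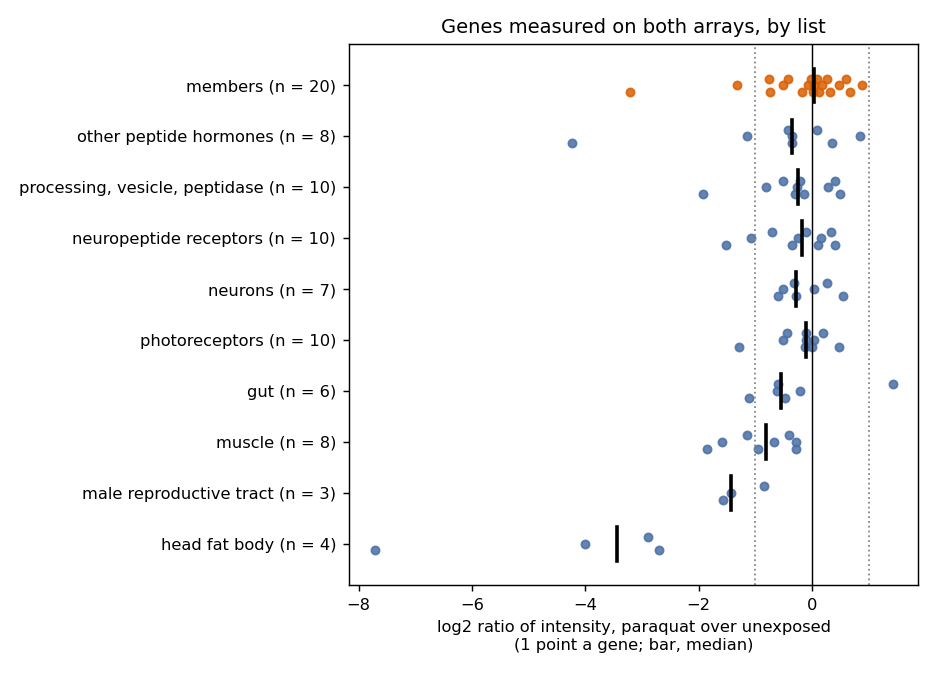
Log2 ratio of intensity (paraquat over unexposed) for each gene measured on both arrays, in the member list and in lists of related genes and of tissue markers. Each point is 1 gene, black bars are medians and dotted lines mark 2-fold. The members' median is 0.03 and the medians of the other 9 lists are all below 0, from -0.10 in photoreceptors and -0.28 in neurons to -0.55 in gut, -0.82 in muscle, -1.43 in the male reproductive tract and -3.44 in head fat body.

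Neuronal and photoreceptor markers were checked because most members are made by neurons. Neuronal markers had a median of -0.28 over 7 measured genes with none past 2-fold, and a summed intensity of 110090 unexposed and 95751 with paraquat, where 7 and 9 of 12 probe sets reached the floor. Photoreceptor markers had a median of -0.10 over 10 genes, of which eys (log2 -1.29) was at least 2-fold lower and none as much higher, and summed intensities of 511982 and 475035. Male reproductive tract transcripts, foreign to the head, reached the floor on 18 of 22 probe sets unexposed and 3 with paraquat (summed intensity 53031 and 7899). Muscle markers summed to 203032 and 77029 (11 and 10 of 16 probe sets at the floor) and gut markers to 38419 and 31734 (9 and 6 of 14).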

How the data were processed

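Heads were measured on 2 arrays, 1 for each group, grouped by sample title. The deposited intensity values are linear, 1 per probe set and negative where background exceeded signal. The values themselves show a scaling by the authors to a mean of 2500 on both arrays once the top and bottom 2% are trimmed. The array type is per the labels; the summarising software, with any detection calls, was not given in the sources used here. From the deposited intensities, both arrays were scaled to a common median of 825 over 13966 non-control probe sets (factors 1.01 and 0.99), a floor was set at 477 and log2 was taken. Below the floor on 1 array, a bound was computed against the higher of the floor and that array's highest absent control (446 unexposed, 533 paraquat). A bound is a quotient of intensities and leaves out array error, so a bound near 1 gives no firm direction. The array error joins the SD of absent controls (358 over 46 values) with the log2 ratio SD over 9 spiked controls (0.12). Precision is limited by the number of arrays. Gene names came from a 2016 platform annotation, in which 12443 had 1 symbol and 327 several. Other symbols were matched to the RefSeq gene table of assembly Release 6, used for names alone, since the arrays' own genome build was not given in the sources used here. A gene with several probe sets took the mean of its measured log2 ratios. The members and lists were chosen with earlier results of these data known. All members are named. Of each other list of related genes, up to 4 with the largest absolute log2 ratio and bounds of at least 2-fold are named. Pal2, 7B2, TkR99D and the receptor genes with smaller or no bounds were added after their values were seen. The ratio calculation was run on simulated arrays with known folds planted only in probe sets well above the floor. The simulated noise of dim signals was smaller than the SD of the absent controls. That run therefore does not cover dim ratios or bounds. Python 3.11.15, pandas 2.3.3 and statsmodels 0.14.6 were used.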

Additional observations from a re-analysis of the deposited data

How the results depend on the processing

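Quantile normalization, unscaled deposited intensities, loess, floors at the 60th and 80th percentiles, the highest absent control of each array as the limit, a pseudocount and the brightest probe set were tried. The count at least 2-fold higher was 0 under all of these, and the count at least 2-fold lower was 2 under all but the pseudocount, where it was 3 because the dim svr probe set 143503_at was counted. Nplp3 ranged from -3.21 to -3.10 and Nplp2 from -1.32 to -1.10. Ms ranged from 0.08 to 0.26, and with its array error of 0.12 the highest value, under quantile normalization, lay beyond the 95% interval around 0. Capa was at 0.01 on unscaled intensities and Crz at -0.02 after loess, the only members whose sign differed from the reported one under these alternatives. The median of the members was -0.02 with the floor at the 60th percentile and -0.18 at the 80th, and between 0.02 and 0.07 under the other 6 settings above. With the floor at the 80th percentile, 9 member probe sets reached it on the unexposed array, 9 on the paraquat array and 9 on both, because fewer probe sets pass a higher floor. Without Nplp2, Nplp3 and Nplp4, an alternative chosen after the data were seen, the median was 0.08. Counts at the floor were not recomputed for loess, the pseudocount and the brightest probe set, which leave the floor as it is or drop it. No paired analysis was possible because each group holds 1 array, and leaving out an array leaves no comparison.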

Other observations

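The ribosomal RNA controls of the arrays, which belong in no comparison above, differed between the arrays. The 18S rRNA control had a scaled intensity of 45413 unexposed and 22533 with paraquat at its 3′ probe set (log2 -1.01), and log2 ratios of -0.92 and -0.96 at its middle and 5′ probe sets. Over the same arrays, the 3′ to 5′ intensity ratio of the GAPDH control was 2.74 unexposed and 2.48 with paraquat, and that of eIF-4a was 11.7 and 9.79. The ACTIN control had the highest ratios, 15.3 unexposed and 11.8 with paraquat, with a dim 5′ probe set (573 and 578). Their part in the neuropeptide results was not tested.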
